A study of Sus scrofa with 24 samples.

Results

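The mitochondrial ribosome is built from RNAs encoded by mitochondrial DNA and from proteins encoded in the nucleus, most of whose genes carry an MRPL symbol (large subunit) or an MRPS symbol (small subunit). Every gene of the array annotation whose symbol begins with MRPL or MRPS and a number was taken. The rule found 54 of 11905 genes on 86 of 43749 probes. Of these genes 33 encode proteins of the large subunit, among them MRPS18A and MRPS30 despite their symbols, and 21 encode proteins of the small subunit. The current reference gene table of the pig lists 77 genes under the same rule, so the array annotation names only some of them. RNA came from pools of 3 embryos of one sex at day 30 of gestation, recovered from primiparous sows. The groups were male and female embryos of 3 IS21FE sows, male and female embryos of 3 IS21SE sows, and embryos of both sexes of 6 control sows. IS21FE and IS21SE are 2 mating strategies that followed oestrus stimulated during lactation by intermittent suckling. The labels do not spell the letters out. Each 2-colour array set a strategy pool against a control pool of its sex, and each of the 12 replicates (3 in each sex of each strategy) was hybridised on 2 arrays with exchanged dyes. Since every sample is a pool of whole embryos, RNA from all their tissues is mixed and no single animal can be followed.

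Mitochondrial ribosomes translate the few messengers that mitochondrial DNA encodes, and their protein products are core subunits of the respiratory chain and of ATP synthase. The same job is done for all other messengers by the cytosolic ribosome, whose proteins come from separate genes. Some mitochondrial ribosomal proteins descend from bacterial ribosomal proteins, while others have no bacterial counterpart and were added during the evolution of mitochondria. Of the members, 36 have a bacterial counterpart and 18 are specific to mitochondria. Early embryos lean strongly on glycolysis and gain respiratory capacity as their organs form.

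All values are log2 ratios. An array was multiplied by -1 where its control RNA carried Cy5, and a replicate is the mean of its arrays. Positive values stand for more RNA in the strategy pool if columns hold Cy5 over Cy3, and for less if they hold Cy3 over Cy5. The files do not state which, nor whether columns had already been turned by the submitters, so ratios are called positive or negative here. An array had values for 31722 to 39435 probes. Precision is limited by the 3 replicate pools of each group, since the 2 arrays of a replicate share their RNA. The SD over all probes was 0.937 to 1.33 on male arrays and 0.620 to 0.890 on female arrays, without overlap. The median absolute deviation from the array median was alike, at 0.357 to 0.368 on male and 0.357 to 0.364 on female arrays. As deposited, the 2 arrays of a replicate had Spearman's rho below 0 in 6 of 6 male replicates and in 1 of 6 female replicates over 18481 probes. Over the 75 member probes measured on every array it was below 0 in 4 of 6 male replicates (-0.29 to 0.25) and in 0 of 6 female replicates (0.0087 to 0.46). These arrays share the RNA of both pools and differ in the dyes. Replicates 1 and 3 of female IS21FE and replicate 2 of female IS21SE had arrays with the strategy RNA in Cy5 that correlated with each other above 0.5, which no other arrays of one orientation did, and values of the female pools are also given without these 3 arrays. In each replicate that loses an array, those values rest on 1 dye orientation, so its dyes are no longer balanced. Levels cannot be read from ratios, and having a value does not identify a tissue, so the labelled tissue could not be checked. Among the genes with values were 16 liver, 12 heart muscle, 12 neural and 11 erythroid markers. The 11 skeletal muscle and 15 trophoblast and endometrium markers had values as well.

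Of the 54 members 0 passed an adjusted p of 0.05 in any of the 4 groups or in the 5 contrasts built from them (limma, Benjamini-Hochberg over all genes tested). Among all genes, 0.0263% were called in male IS21FE pools (3 of 11421) and 0% in each of the other 8 contrasts. At an unadjusted p under 0.05 there were 2 members in male IS21FE pools, both negative, where 7.57% of all genes passed and 4.2% on the negative side. In female IS21FE pools there were 6, all positive (7.13% of all genes, and 3.43% on the positive side). In male IS21SE pools there were 7, of which 6 were positive (11.1% of all genes, and 5.74% on the positive side), and in female IS21SE pools there were 0 (4.06%). In the other contrasts the members past that limit numbered 3 in the mean of both sexes of IS21FE (8.08% of all genes), 1 in the mean of IS21SE (7.69%), 1 and 2 in the differences between sexes of IS21FE (6.21%) and IS21SE (7.18%), and 0 between the strategies (5.35%). Since male and female replicates of a strategy come from the same 3 sows by the labels' counts, means over both sexes rest on 6 pools of 3 sows.

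The 95% interval of the limma fit lay within 1.5-fold in either direction for 52 members in male IS21FE, 50 in female IS21FE, 49 in male IS21SE and 50 in female IS21SE pools. Within 2-fold lay all 54 in each group except female IS21FE, where MRPS2 reached beyond it. In the male minus female differences, 40 of 54 intervals lay within 1.5-fold under each strategy. The intervals of the groups reached a median of 0.24 to each side of the ratio, against 0.52 to 0.53 over all genes tested. All these intervals bound a difference between strategy and control only if the columns had not already been turned. The replicates of a group were likewise close: the median SD within groups was 0.147 over 53 members measured in all 12 replicates, against 0.127 over 48 cytosolic ribosomal protein genes and 0.342 over all 9498 genes. In these bulk pools fewer cells of a type and less RNA per cell cannot be told apart.

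The middle of the members lay slightly above 0 in female pools when all arrays were used. The median member ratio in male IS21FE pools was 0.013 with 30 of 54 positive (46.9% of all genes were positive, median -0.015), and replicates 1, 2 and 3 had medians of 0.048, -0.0083 and -0.048. In female IS21FE pools it was 0.086 with 41 of 54 positive (50.4% of all genes, median 0.0019), and the replicates stood at 0.13, 0.085 and 0.075. The median in male IS21SE pools was 0.010 with 30 of 54 positive (48.8% of all genes, median -0.0090), and replicate 1 (-0.11) lay apart from replicates 2 (0.095) and 3 (0.072). Its fitted median was 0.097 without replicate 1, -0.015 without replicate 2 and -0.010 without replicate 3. In female IS21SE pools it was 0.047 with 38 of 54 positive (52.5% of all genes, median 0.014), with 0.071, 0.047 and 0.028 in the replicates. All 6 female replicates thus had a positive median, while male replicates fell on both sides of 0. Without the 3 arrays alike the female IS21FE median was 0.013 with 30 of 54 positive, and its replicates stood at 0.029, 0.085 and -0.019. Replicates 1 and 3 then hold only their array with the strategy RNA in Cy3, so the dye exchange is lost in them. The kept Cy5 array of replicate 2 had a member median of 0.19, against 0.21 and 0.19 on those left out. Turned by dye, the Cy3 arrays of the group had 0.029, -0.037 and -0.019. Whether the shift follows the dye orientation or the likeness of the arrays was not tested. The female IS21SE value was 0.036 with 35 positive without the 3 arrays.

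**Figure D1:**
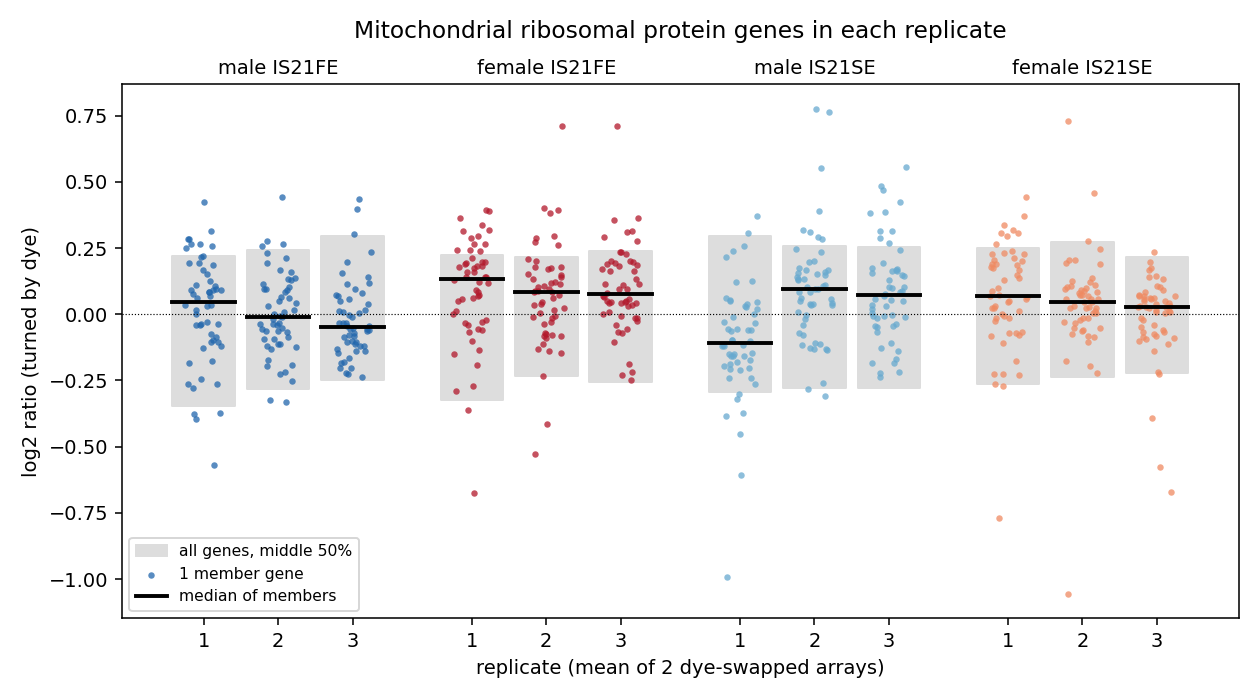
Log2 ratio (vertical axis, turned by dye) of each of the 54 mitochondrial ribosomal protein genes (points) in each of the 12 replicates (horizontal axis), with the median of the members (black bar) and the middle 50% of all genes (grey box). Most points lie inside the grey boxes, the 6 female medians run from 0.028 to 0.13, and the male medians run from -0.11 to 0.095.

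The large and the small subunit were then read apart. Positive in male IS21FE pools were 17 of 33 large subunit genes and 13 of 21 small subunit genes, with medians of 0.0097 and 0.017. Those of female IS21FE pools were 25 and 16, with medians of 0.089 and 0.081, and without the 3 arrays alike 19 and 11, with medians of 0.025 and 0.0089. In male IS21SE pools they were 20 and 10 (medians 0.016 and -0.0042), and in female IS21SE pools 24 and 14 (medians 0.056 and 0.045). Members with a bacterial counterpart and members specific to mitochondria had medians of 0.080 and 0.094 in female IS21FE pools (0.0036 and 0.069 without the 3 arrays), and of 0.041 and -0.024 in male IS21SE pools. In the other 2 groups both kinds lay between 0.0052 and 0.058. Differences between these subsets were not tested.

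Single members were followed by their place in the ribosome. This grouping, and the members named only as the highest or lowest of a place, were chosen after their values were seen.

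At the stalks of the large subunit, which receive translation factors and move transfer RNA out, 3 members were measured. MRPL1, the protein of the stalk where spent transfer RNA leaves, had 0.28, -0.25 and -0.17 in male IS21FE, 0.37, 0.18 and 0.31 in female IS21FE, -0.24, 0.084 and -0.046 in male IS21SE and 0.31, 0.19 and 0.069 in female IS21SE replicates. Its values were positive in all 6 female replicates and of mixed sign in male ones, with a fitted ratio of 0.29 ± 0.12 (SE) in female IS21FE pools (limma adjusted p = 0.693) and 0.38 without the 3 arrays. Its 2 probes differed, with means of 0.038 and 0.14 over the study. They had 0.19 and 0.38 in female IS21FE pools, but -0.013 and 0.39 in female IS21SE pools. The positive ratio of female IS21SE thus came from 1 probe. MRPL10, which anchors the stalk that binds elongation factors, had the most negative ratio of all members in male IS21FE pools. It stood at -0.38, -0.32 and -0.23 there and at -0.058, -0.11 and -0.22 in female IS21FE replicates, so it was negative in 6 of 6 IS21FE replicates. Its mean over both sexes of IS21FE was -0.22, and in IS21SE replicates it ran from -0.99 to 0.16 with 1 replicate not measured. The only probe of MRPL10 had values on 20 of 24 arrays, the fewest of any member probe. MRPL11, at the base of the same stalk, was positive in 10 of 12 replicates (-0.061 to 0.25), with 0.12, 0.25 and 0.19 in male IS21SE replicates and a ratio of 0.19 ± 0.084 (SE) there (limma adjusted p = 0.449). Over both sexes of IS21SE it had 0.12. None of the 3 passed the threshold in any comparison.

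Near the catalytic centre, where peptide bonds form, MRPL2, MRPL3, MRPL16 and MRPL27 had ratios between -0.21 (MRPL3, male IS21SE) and 0.083 (MRPL2, male IS21SE) in the 4 groups. All 4 were positive in female IS21FE pools, between 0.025 and 0.080, and 2 of 4 were without the 3 arrays. None reached an unadjusted p of 0.05 in a comparison with control.

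Around the tunnel through which new chains leave, 6 members were measured. Their median was -0.0011 in male IS21FE, 0.12 in female IS21FE, 0.082 in male IS21SE and 0.13 in female IS21SE pools, and all 6 were positive in the last group. MRPL23, at the mouth of the tunnel, had the most positive ratio of all members in male IS21SE pools, from replicates at 0.051, 0.78 and 0.32 (0.38 ± 0.17, SE, limma adjusted p = 0.447). In female IS21SE replicates it had 0.022, 0.20 and 0.033, and it was positive in 6 of 6 IS21SE replicates, with a mean over both sexes of 0.23. Replicate 2 was the highest of the males and lay apart from the others. In IS21FE replicates it ran from -0.24 to 0.43.

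In the central protuberance, the part of the large subunit that faces the head of the small one, MRPL38 had the highest ratio of the 4 members in female IS21FE and in male IS21SE pools. It had -0.39, 0.10 and -0.044 in male IS21FE, 0.18, 0.18 and 0.24 in female IS21FE, 0.24, 0.39 and 0.42 in male IS21SE and -0.23, 0.46 and 0.018 in female IS21SE replicates. All male IS21SE and all female IS21FE replicates were positive, while the other 2 groups spread over both signs. The fitted ratio in male IS21SE pools was 0.35 ± 0.14 (SE, limma adjusted p = 0.408), and 0.22 over both sexes. MRPL46, a neighbour in the same structure, split by sex. It had -0.11, -0.17 and -0.11 in male IS21FE and -0.097, -0.13 and -0.043 in male IS21SE replicates. Female IS21FE replicates had 0.0029, 0.15 and 0.16, and female IS21SE replicates had 0.19, 0.11 and 0.063. Every male value was thus below every female value with all arrays. The female ratios without the 3 arrays were 0.035 under IS21FE and 0.12 under IS21SE, and that of MRPL38 in female IS21FE pools was -0.10.

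Elsewhere in the large subunit, MRPL32 was positive in all 6 female replicates. MRPL32 is cleaved on import by a protease of the inner membrane, a step known in yeast and mice to come before assembly of the ribosome. It had 0.11, -0.052 and 0.017 in male IS21FE and 0.21, 0.29 and 0.36 in female IS21FE replicates. Under IS21SE it had -0.26, 0.18 and 0.068 in male and 0.34, 0.25 and 0.067 in female replicates. The fitted ratio was 0.29 ± 0.11 (SE, limma adjusted p = 0.636) in female IS21FE and 0.22 ± 0.11 (SE, limma adjusted p = 0.999) in female IS21SE pools, where it was the member with the smallest p and the most positive ratio. Both stayed positive without the 3 arrays (0.32 and 0.25). Over both sexes of IS21FE it had 0.16.

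MRPL28, a protein with a bacterial counterpart, was positive in 11 of 12 replicates. It had 0.31, 0.094 and 0.56 in male IS21SE and 0.23, 0.0060 and 0.17 in female IS21SE replicates, positive in 6 of 6 and with 1 value close to 0. Its ratio was 0.32 ± 0.11 (SE, limma adjusted p = 0.368) in male IS21SE pools, and over both sexes of IS21SE it was 0.23 (limma adjusted p = 0.580). Its 3 probes had study means of 0.12 to 0.18. MRPL20, an RNA-binding protein that joins early in assembly of the bacterial subunit, was also positive in 11 of 12 replicates. It had 0.28, 0.064 and 0.14 in male IS21FE and 0.068, 0.21 and 0.043 in female IS21FE replicates, a mean over both sexes of 0.13. Its female IS21FE ratio was -0.040 without the 3 arrays. MRPL44, which carries a fold of RNA-cleaving enzymes, was the most positive member in male IS21FE pools, with 0.060, 0.19 and 0.40 in the replicates and a ratio of 0.22 ± 0.12 (SE, limma adjusted p = 0.758).

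MRPL49, a protein with no bacterial counterpart, was negative in 5 of 6 IS21FE replicates. It had -0.57, -0.13 and -0.079 in male IS21FE and -0.14, 0.018 and -0.25 in female IS21FE replicates. Replicate 1 of the males lay apart. The fitted ratio was -0.26 ± 0.11 (SE, limma adjusted p = 0.641) in male IS21FE pools and -0.19 over both sexes. It was 0.48 in female IS21FE pools and 0.11 over both sexes without the 3 arrays, so its sign there turned. MRPL39, which resembles a transfer RNA synthetase and is also specific to mitochondria, had -0.38, -0.26 and -0.037 in male IS21SE and 0.21, 0.023 and 0.051 in female IS21SE replicates, so the sexes did not overlap. Its ratio in male IS21SE pools was -0.23 ± 0.094 (SE, limma adjusted p = 0.430), and its 2 probes had study means of -0.019 and 0.031, on opposite sides of 0. MRPL51 was the most negative member in female IS21SE pools at -0.33, but that value came from replicate 2 alone (-1.06), with -0.067 and 0.14 in the others, and the ratio was -0.044 without the 3 arrays.

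**Figure D2:**
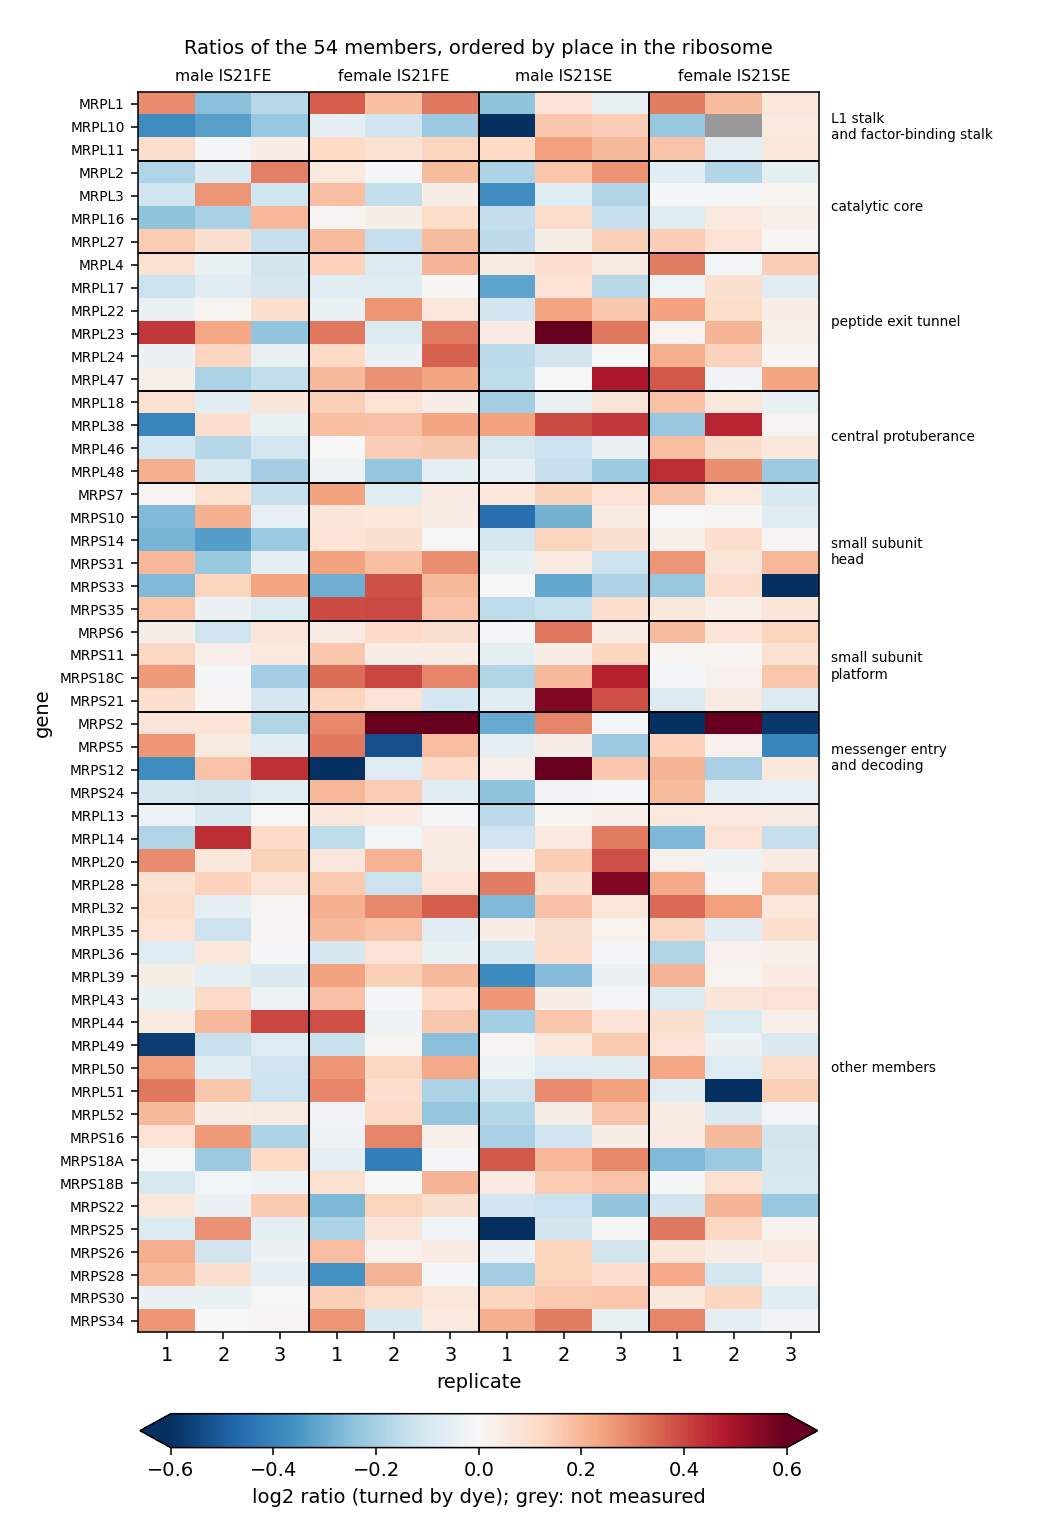
Log2 ratio (colour, turned by dye, from blue for negative to red for positive) of the 54 members (rows, grouped by place in the ribosome) in the 12 replicates (columns, by group). The 3 female IS21FE columns hold 39, 36 and 41 positive values of 54, replicate 1 of male IS21SE holds mostly blue (16 of 54 positive), and MRPL10 was not measured in replicate 2 of female IS21SE.

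In the head of the small subunit, 2 of 6 members had positive ratios in male IS21FE and 6 of 6 in female IS21FE pools (0.061 to 0.32, and 5 of 6 without the 3 arrays), and 2 of 6 in male IS21SE and 4 of 6 in female IS21SE pools. MRPS35, specific to mitochondria, had the smallest p of all members in female IS21FE pools. It had 0.17, -0.035 and -0.083 in male IS21FE replicates, against 0.39, 0.40 and 0.17 in female IS21FE replicates. The ratio was 0.32 ± 0.097 (SE, limma adjusted p = 0.541) in females and 0.17 over both sexes of IS21FE, and without the 3 arrays alike the female ratio was 0.15. MRPS31, also specific to mitochondria, had 0.24, 0.18 and 0.28 in female IS21FE and 0.27, 0.074 and 0.20 in female IS21SE replicates, with ratios of 0.23 and 0.18 (0.23 and 0.17 without the 3 arrays). In male replicates it ran from -0.23 to 0.20. MRPS14, a head protein with a bacterial counterpart, was the member with the smallest p in male IS21FE pools. It had -0.28, -0.33 and -0.22 there, against 0.084, 0.097 and 0.0011 in female IS21FE replicates, with no overlap. The female ratio was -0.15 without the 3 arrays. The male ratio was -0.28 ± 0.085 (SE, limma adjusted p = 0.436). In IS21SE replicates it ran from -0.10 to 0.13.

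On the platform of the small subunit, MRPS18C is one of 3 copies of the bacterial protein S18 that the mitochondrial ribosome uses. It had 0.34, 0.40 and 0.29 in female IS21FE replicates, a ratio of 0.34 ± 0.13 (SE, limma adjusted p = 0.641) and of 0.15 without the 3 arrays. With all arrays its 3 probes differed in female IS21FE pools, with means of 0.14, 0.62 and 0.27. The first of these probes had -0.014, 0.43 and 0.00089 in the replicates. In the other groups MRPS18C spread from -0.20 to 0.47. MRPS18B, another copy in the small subunit, had -0.098, -0.018 and -0.031 in male IS21FE and 0.093, 0.0042 and 0.20 in female IS21FE replicates, where its ratio was -0.15 without the 3 arrays. MRPS18A, the copy that sits in the large subunit despite its symbol, split by sex in IS21SE pools. It had 0.37, 0.20 and 0.29 in male IS21SE and -0.26, -0.22 and -0.10 in female IS21SE replicates, without overlap, and ratios of 0.29 ± 0.11 (SE, limma adjusted p = 0.394) in males and -0.20 in females (-0.26 without the 3 arrays). In male IS21SE pools the ratios of MRPS18C (0.16) and MRPS18B (0.12) were positive too. Differences between the copies were not tested. MRPS21, a small protein of the small subunit platform, had -0.064, 0.55 and 0.38 in male IS21SE replicates (0.29 ± 0.12, SE, limma adjusted p = 0.436). MRPS11, which lies near the path by which the messenger leaves, had the narrowest spread of all members over the 12 replicates (SD 0.060) and was positive in 11 of them, between 0.031 and 0.16 in the IS21FE replicates and at most 0.13 in the IS21SE ones. MRPS6 was positive in 10 of 12 replicates, with a ratio of 0.13 over both sexes of IS21SE.

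MRPS2 and MRPS12 of the small subunit were 2 of the 3 members with the widest spread over the replicates. MRPS2 had the most positive ratio of all in female IS21FE pools, with 0.29, 0.71 and 0.71 in the replicates (0.57 ± 0.25, SE, limma adjusted p = 0.699), and 0.68 without the 3 arrays. In female IS21SE replicates it had -0.77, 0.73 and -0.58, and its SD over the study was 0.494, the widest of the members. MRPS12, which monitors the pairing of codon and anticodon, was the most negative in female IS21FE pools at -0.21, where the replicates had -0.68, -0.078 and 0.12 (-0.38 without the 3 arrays). Its SD over the study was 0.369, and that of MRPL51 was 0.378. At the other end stood MRPS11, MRPL13 (0.068) and MRPS30 (0.083), a protein of the large subunit despite its symbol. MRPS25 was the most negative in male IS21SE pools at -0.24, with -0.61 in replicate 1 and -0.11 and 0.0058 in the others. Of the 21 members with several probes, 5 had probes with study means of unlike sign, namely MRPL13, MRPL39, MRPL48, MRPS24 and MRPS28, the largest gap being 0.20 between 2 of the 4 probes of MRPL48.

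**Figure D3:**
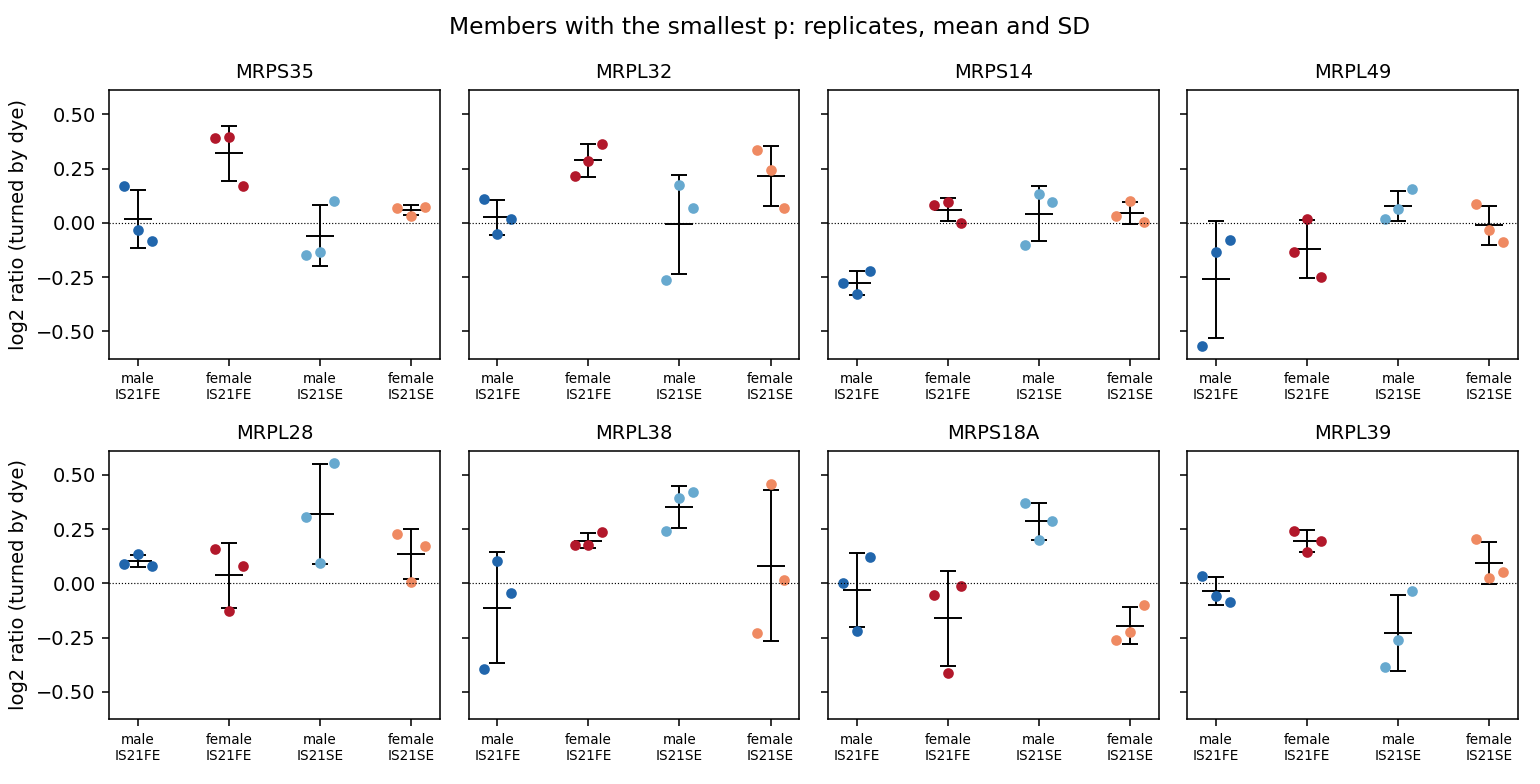
Log2 ratio (vertical axis, turned by dye) of 8 members in the replicates (points) of the 4 groups (horizontal axis), with the group mean and SD (bars, n = 3). The 3 MRPS14 values of male IS21FE lie between -0.33 and -0.22, below all others of that gene, and the MRPS18A values of male and female IS21SE do not overlap.

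Agreement over replicates was counted without a test. Of 54 members in male IS21FE pools, 6 were positive in 3 of 3 replicates and 8 were negative in all, where 9.81% and 13.1% of all genes were. In female IS21FE pools the counts were 22 and 3 (18.8% and 18% of all genes), and without the 3 arrays 11 and 5 of 52 (15.4% and 15.3% of all genes). For male IS21SE pools they were 13 and 8 (17.5% and 17.6%), and in female IS21SE pools 17 and 2 of 53 members measured in each replicate (13.8% and 11.3%). Over the 6 replicates of IS21FE, MRPL20 and MRPS11 were positive and MRPL10 negative throughout, where 4.72% of all genes kept a sign. Over those of IS21SE, MRPL23 and MRPL28 were positive throughout (4.13% of all genes). Without the 3 arrays 0 of 52 members kept a sign over IS21FE (3.66% of all genes) and over IS21SE 1 of 53 did, MRPL4 (3.12%). In all 12 replicates 0 of 53 members kept a sign, where 0.19% of all genes did.

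Male and female pools were then compared. Under IS21FE the median of the male minus female differences of the members was -0.071 with 15 of 54 positive (45.5% of all genes were, median -0.036). Under IS21SE it was -0.010 with 24 of 54 positive (46.9% of all genes, median -0.026). The smallest p belonged to MRPS14 under IS21FE, with a difference of -0.34 ± 0.12 (SE, limma adjusted p = 0.735), followed by MRPS35 at -0.30 and MRPL46 at -0.23. Under IS21SE it belonged to MRPS18A, with 0.48 ± 0.15 (SE, limma adjusted p = 0.632), followed by MRPL39 at -0.32 and MRPS25 at -0.39. Opposite signs in all 3 male and all 3 female replicates were seen in 3 members under IS21FE (MRPL46, MRPS14 and MRPS18B, where 3.28% of all genes showed it). Under IS21SE there were 4 of 53 (MRPL24, MRPL39, MRPL46 and MRPS18A, where 4.52% did). These members without the 3 arrays were MRPL49 alone under IS21FE (1 of 52, 3.06% of all genes) and the same 4 of 53 under IS21SE (5.44%). Male and female arrays differ in SD but not in median absolute deviation, as given above. Sex and the difference in SD cannot be told apart here. Without the 3 arrays alike the median difference under IS21FE was 0.0096, with MRPS14 at -0.13, MRPS35 at -0.13 and MRPL46 at -0.16, and under IS21SE MRPS18A had 0.55.

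Between the strategies, the members' IS21FE minus IS21SE difference, each the mean of both sexes, had a median of 0.013 with 29 of 54 positive (47.4% of all genes, median -0.013). The smallest p belonged to MRPL49 at -0.23, MRPS14 at -0.15 and MRPS35 at 0.17 (limma adjusted p = 0.905 for each). They had 0.062, -0.24 and 0.11 without the 3 arrays. The mean of both sexes itself had a median of 0.044 with 41 of 54 positive for IS21FE (49.5% of all genes) and 0.028 with 35 of 54 for IS21SE (51.6%). The 95% interval of the difference lay within 1.5-fold for 50 of 54 members, the others being MRPL51, MRPS2, MRPS12 and MRPS33.

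Other genes of mitochondrial translation were read beside the members, and 0 of them passed the threshold in any of the 9 contrasts (limma). At an unadjusted p under 0.05 there were in male IS21FE pools 1 of 9 translation factors and 1 of 14 assembly factors, both negative, and 2 of 15 aminoacyl-tRNA synthetases (7.57% of all genes passed). Female IS21FE pools had 1 of 9 translation factors and 1 of 14 assembly factors, both positive (7.13% of all genes). Male IS21SE pools had 3 of 9 translation factors, all negative, 2 of 14 assembly factors, both positive, and 1 of 8 regulators of transcription and biogenesis (11.1%), and female IS21SE pools had 1 of 14 assembly factors (4.06%). A further 6 genes encode ribosome proteins or bound partners that the array annotation gives no MRP symbol, among them MRPL58, listed there as ICT1. In female IS21FE pools 4 of these 6 were positive, as were 7 of 9 translation factors (median 0.10) and 11 of 14 assembly factors (median 0.11). Without the 3 arrays alike these were 4 of 6, 7 of 9 (median 0.13) and 7 of 14 (median 0.00097). In female IS21SE pools 5 of 6, 6 of 9 and 12 of 14 were positive, and without the 3 arrays 6 of 6, 5 of 9 and 8 of 14. The aminoacyl-tRNA synthetases of mitochondria (6 of 14 positive) and the regulators of mitochondrial transcription and biogenesis (4 of 9) had medians of -0.011 and -0.0026 in female IS21FE pools, and of 0.18 (8 of 12) and -0.068 (4 of 9) without the 3 arrays. In male IS21SE pools 3 of 6, 4 of 9 and 8 of 14 were positive for the first 3 lists, and 1 of 8 for the regulators (median -0.069). With the smallest p of their lists over both sexes of IS21FE stood CHCHD1, a small subunit protein (0.13), MTRF1L, a release factor (0.17), MRM1, a methylase of ribosomal RNA (0.15), EARS2, the glutamyl-tRNA synthetase (-1.22) and TFAM, which packs mitochondrial DNA (-0.21). Over both sexes of IS21SE these were OXA1L, the membrane insertase that takes up new chains (0.16), MTIF2, an initiation factor (-0.34), ERAL1, which binds the RNA of the small subunit (0.27), PARS2, the prolyl-tRNA synthetase (-0.60) and POLG, the polymerase of mitochondrial DNA (0.20). None of these 10 passed the threshold.

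In female IS21FE pools the cytosolic ribosomal protein genes lay on the other side of 0, with 41 of 54 members positive against 10 of 50 of these genes (median -0.078). This held in replicates 1 and 3, with cytosolic medians of -0.14 and -0.13. Replicate 2 had a cytosolic median of 0.022 with 28 of 49 positive. Without the 3 arrays alike the counts were 30 of 54 members (median 0.013) against 8 of 49 cytosolic genes (median -0.18). Of them 25 of 50 were positive in male IS21FE pools, in male IS21SE pools 36 of 50 (median 0.051) and in female IS21SE pools 22 of 50 (median -0.014). The difference between the 2 families was not tested. The medians of some tissue marker lists kept 1 sign in 3 of 3 replicates of a group. Of all genes, 50.4% were positive in female IS21FE, 48.8% in male IS21SE and 46.9% in male IS21FE pools. The erythroid gene counts given next lay near these shares. In female IS21FE pools the medians of the erythroid list (5 of 11 genes positive, replicates from -0.19 to -0.038), the skeletal muscle list (3 of 11, -0.13 to -0.10) and the list of trophoblast and endometrium (5 of 15, -0.13 to -0.073) were negative in 3 of 3 replicates. Without the 3 arrays 4 of 11, 1 of 11 and 2 of 15 of these genes were positive (50% of all genes). In male IS21SE pools the medians of the heart muscle list (11 of 12 genes positive, replicates from 0.26 to 0.94), the liver list (14 of 16, 0.11 to 0.45) and the erythroid list (6 of 11, 0.10 to 0.30) were positive in 3 of 3. In male IS21FE pools the skeletal muscle list was negative in 3 of 3 (1 of 11 genes positive, -0.27 to -0.13). Their part in the members' ratios was not tested.

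The medians of the members depended on how the arrays were combined. On female IS21FE arrays with the strategy RNA in Cy5 the median member value was 0.21, 0.19 and 0.19, and on their partners with exchanged dyes it was -0.029, 0.037 and 0.019 as deposited. When signs were left as deposited, the median was -0.082 in male IS21FE, 0.14 in female IS21FE, -0.096 in male IS21SE and -0.022 in female IS21SE pools, with 18, 39, 8 and 23 of 54 positive. If the columns run in dye order, this mean holds the difference between dyes. If they had already been turned, it holds the strategy against the control. With signs as deposited limma called 309 of 11690 genes in female IS21FE pools (2.64%), among them 2 members.

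The first was MRPL35, a large subunit protein with a bacterial counterpart. As deposited its values were 0.64, 0.88 and 0.40 on the female IS21FE arrays with the strategy RNA in Cy5 and 0.25, 0.53 and 0.54 on their partners. All 6 were positive, with a mean of 0.54 (limma adjusted p = 0.0223), while the turned ratio was 0.10. In male IS21FE pools its as-deposited mean was 0.029. MRPS18B had 0.45, 0.23 and 0.60 on the arrays with the strategy RNA in Cy5 and 0.26, 0.23 and 0.19 on their partners, a mean of 0.33 (limma adjusted p = 0.0467) against a turned ratio of 0.10. In the mean of both sexes of IS21FE, MRPL35 (0.28, limma adjusted p = 0.0335) and MRPS6 (0.23, limma adjusted p = 0.0398) were called among 323 of 11303 genes (2.86%). MRPS6 was positive as deposited on 12 of 12 IS21FE arrays. With signs as deposited 0 members were called in the other 7 contrasts. Of all genes 1.02% were called there in female IS21SE pools, 0.0613% in male IS21FE pools, 0.0441% in the mean of IS21SE and 0% in the other 4. At an unadjusted p under 0.05, with signs as deposited, there were 13 members in male IS21FE (14.7% of all genes), 22 in female IS21FE (17.8%), 12 in male IS21SE (12.1%) and 13 in female IS21SE pools (17.7%). In the means of both sexes there were 19 for IS21FE (20.4%) and 15 for IS21SE (18.5%). The differences between sexes had 13 under IS21FE (12.8%) and 10 under IS21SE (12%), and the difference between strategies had 4 (4.85%).

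**Figure D4:**
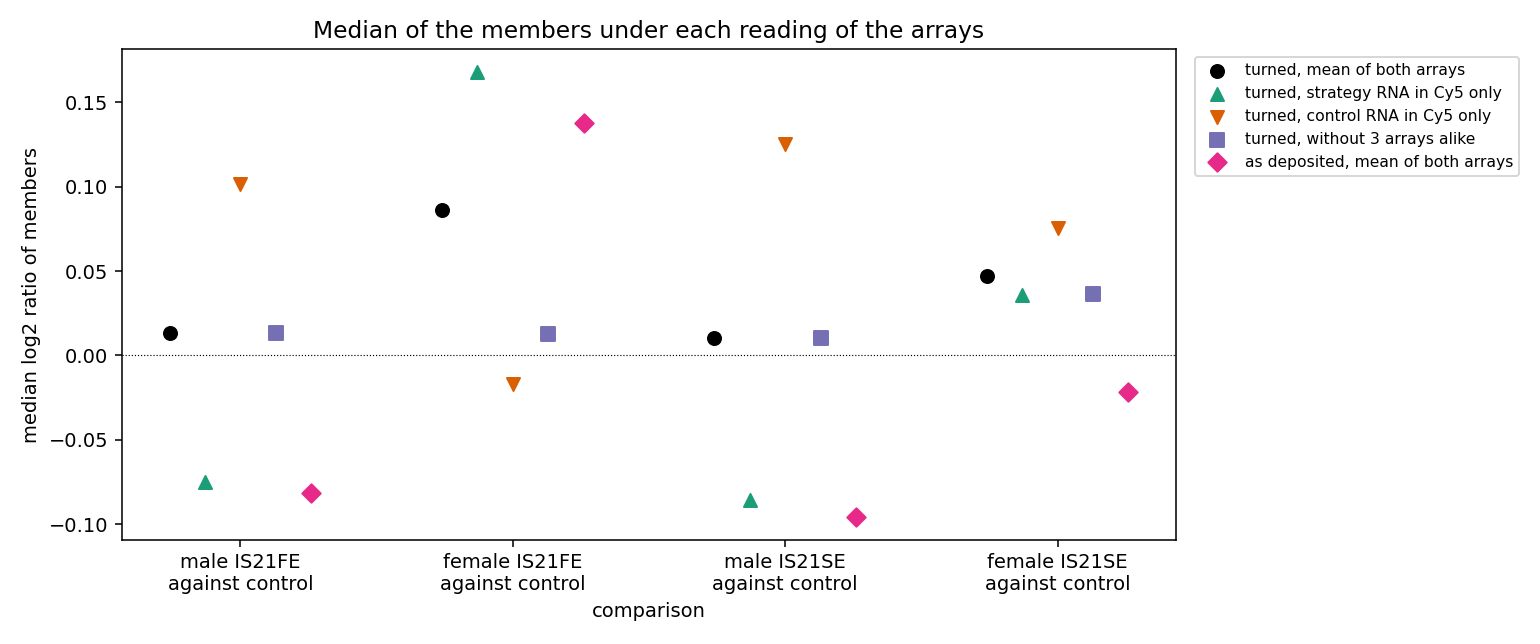
Median log2 ratio of the 54 members (vertical axis) in the 4 comparisons with control (horizontal axis) under 5 ways of combining the arrays (symbols). In male pools the 2 dye orientations lie on opposite sides of 0 (-0.075 and 0.10 for IS21FE, -0.086 and 0.13 for IS21SE), and in female IS21FE pools the median falls between -0.017 and 0.17 by the arrays used.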

How the data were processed

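The deposited table gives a log ratio for each probe and array, taken as log2 because the values run from -9.34 to 9.85. The sources used here do not say how the authors normalized, filtered or corrected them for background, or in which log base. Blank values made up 16.6%. Per the labels' protocols, 200 ng of RNA was labelled with a low input kit with spike-ins. Array medians lay within 0.05 of 0. No signal over background could be set as a filter, since intensities were not used here.

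Probes took the platform's symbol, updated through reference tables (116 renamed by accession, 224 by synonym). Of 43749 probes 18109 had 1 symbol and 25640 none. Probes of a gene were averaged, and a replicate is the mean of whichever of its 2 arrays measured it. All 54 members were tested in every contrast: a gene needed 2 measured replicates or more in the groups of a contrast. The main fit was limma 3.58.1 in R 4.3.3 (4 group means on 12 replicates, lmFit and eBayes without trend), with Benjamini-Hochberg adjustment over all genes and a threshold of 0.05. The fit was tested on simulated data with independent noise in every value. That simulation held no dye effect, shared sows or alike arrays, so it cannot speak to these. Adjusted p values are from limma. p values rest on the spread between the 3 pools of a group, pooled over the 4 groups and moderated over all genes.

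Named members were those past the threshold or, where fewer than 5 passed, the 5 with the smallest p in the comparisons with control and in the means of both sexes (3 in the difference contrasts), the most positive and most negative of a group, those of constant sign over a strategy, those with probes of unlike sign and the 3 widest and narrowest spreads. Members, lists and rules were chosen with earlier results of these data known. Replicate numbers are shared between sexes, but the labels do not say that they mark a sow. The correlation of deviations of same-numbered male and female replicates was 0.0074 to 0.083 over 9498 genes. Between replicates of unlike number it was -0.077 to 0.046. The numbers were not taken as pairs in the main fit. Whether same-numbered pools share a sow was not tested.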

Additional observations from a re-analysis of the deposited data

How the results depend on the processing

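The count of 0 members called held in the 9 contrasts under each alternative tried except the signs as deposited, which called 2 in female IS21FE pools and 2 in the mean of both sexes of IS21FE. Those signs also moved the median member ratio by more than the spread between replicates, to -0.082 in male IS21FE, 0.14 in female IS21FE, -0.022 in female IS21SE, -0.070 in the mean of IS21SE and -0.16 in the male minus female difference of IS21FE. Arrays with the strategy RNA in Cy5 alone gave -0.075 in male IS21FE, 0.17 in female IS21FE, -0.24 in the sex difference of IS21FE and 0.097 between the strategies. The opposite orientation alone gave 0.10, -0.017, 0.070 and -0.069 for the same 4, and 0.13 in male IS21SE and 0.076 in female IS21SE pools. Without the 3 arrays alike, female IS21FE had 0.013 and the sex difference of IS21FE 0.0096. That alternative was chosen after seeing the data, and it also takes away the dye balance of the replicates concerned. The cause was not tested. With 1 replicate left out at a time, the median ratio of the members lay between -0.011 and 0.028 in male IS21FE pools and between 0.062 and 0.096 in female IS21FE pools, and no member was called. In male IS21SE pools the median was 0.097 without replicate 1, -0.015 without replicate 2 and -0.010 without replicate 3. The sign turned in 2 of 219 such ratios of named members. Among all genes in male IS21FE pools, 3 were called, against 25 without replicate 1, 2 without replicate 2 and 7 without replicate 3. Of 46 ratios of named members, each in the contrast that named it, 29 changed sign with signs as deposited and 4 and 5 (of 45) with 1 orientation. There were 2 without the 3 arrays alike, where ratios of male pools alone cannot change. That count leaves out MRPL38, MRPL20, MRPS14 and MRPS18B in female IS21FE pools, which turned negative without these arrays. There were 0 with probe medians, rescaled or centred arrays, weights or single arrays with a dye term. A dye term can change little where both orientations are present. Replicate number as a block gave 0 members called and a median of 0.049 in female IS21SE, and kept 0 of the 3 calls among all genes in male IS21FE pools. The fit of each sex apart gives no value for contrasts that span both.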
